A study of Homo sapiens with 8 samples.

Results

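The expression of 10 genes that report and restrain ERK signalling was followed in A673/TR/shFEZF1 cells: the MAP kinase phosphatases DUSP4, DUSP5 and DUSP6, the membrane inhibitors SPRY2, SPRY4, SPRED1 and SPRED2, the PEA3 transcription factors ETV4 and ETV5, and PHLDA1. The genes were chosen by their known place in the pathway, out of 34792 genes with summed reads. Their measured values were not used in the rule, although earlier results of these data were known. The filter on low counts left 15993 genes to test and kept 10 of 10. The host line A673 was derived from an Ewing sarcoma and holds the EWSR1-FLI1 fusion and a mutant BRAF, and in A673/TR/shFEZF1 cells an shRNA against FEZF1, a zinc finger transcription factor, is induced by doxycycline. The polyclonal population and clones 3, 5 and 6, all in DMEM with 10% FBS and blasticidin, puromycin and zeocin, were each sequenced once without doxycycline (4 control cultures) and once after 72 h with 1 µg/mL doxycycline (4 doxycycline cultures). Each clone is a single clone, and none of the 8 cultures received doxycycline without the FEZF1 shRNA, so the drug and the shRNA cannot be told apart. The labels do not say whether the cultures of an origin were grown apart more than once. The p-values of tests paired by origin measure how the difference with doxycycline varies between these 4 origins, not between repeated cultures. Those of unpaired tests measure the spread between these 8 cultures.

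RAF kinases such as BRAF activate MEK, which activates the ERK kinases. Active ERK enters the nucleus, relieves repression by the protein CIC and raises ETS and AP-1 factors, and through them it induces a small set of genes that is often read as a measure of pathway output. Many of these genes encode inhibitors of the pathway itself: the DUSP phosphatases remove the activating phosphates from ERK, and Sprouty and SPRED proteins act upstream at RAS and RAF. In a line with mutant BRAF the signal enters below RAS, where Sprouty and SPRED proteins have less hold.

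The sequence before the start of DUSP6 is shown because DUSP6 was the most abundant of the 10 genes and because CIC, the repressor released by ERK, reads an octamer that occurs there. These are the 250 bases upstream of the RefSeq start (GRCh38.p14, minus strand, chr12:89352502-89352751), 5′ to 3′, with the octamer in capitals:
DUSP6: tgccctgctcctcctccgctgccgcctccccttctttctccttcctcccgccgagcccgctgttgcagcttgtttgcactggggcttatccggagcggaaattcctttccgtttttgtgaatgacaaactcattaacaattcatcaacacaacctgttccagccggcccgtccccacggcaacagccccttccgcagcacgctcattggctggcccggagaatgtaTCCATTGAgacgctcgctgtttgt
The letters searched for CIC were TGAATGAA, TGAATGGA, TCAATGAA and TCAATGGA on both strands, and the match is TCAATGGA read on the other strand. It lies at position -24 from the start, and the same letters recur at position 2, inside the transcript. Of 35116 RefSeq promoter entries (250 bases before to 50 after the start), 3.77% hold such an octamer, and of the 9 entries of DUSP6, SPRY2, SPRY4, SPRED1, SPRED2 and PHLDA1, 1 does. The ETS core CCGGAA was found in 2 of the 9 entries, those of PHLDA1 (position -89) and of 1 start of SPRY2 (position -142), against 17.2% of all entries. The AP-1 element TGACTCA was found in 1 entry, of SPRED2 (position -6), against 4.95%, and the tandem GGAAGGAA, the unit of the repeats that EWSR1-FLI1 binds, in 0 of 9 against 3.67%. A match of letters is a description and not a measured binding site. No entry for DUSP4, DUSP5, ETV4 or ETV5 was used here.

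Between 26719886 and 42422421 reads per library were assigned to transcripts, and 89.9% to 91.1% of them were matched to a gene symbol. FEZF1 checked the labels: it was at 96.4, 70.5, 107 and 74.4 CPM (library-scaled counts after TMM normalization) in the control cultures of the polyclonal population and clones 3, 5 and 6, and at 60.6, 43.0, 60.8 and 36.4 CPM in their doxycycline cultures. The doxycycline values were all below the control values, for which an exact 2-sided permutation test gave p = 0.0286, its minimum at 4 against 4. That test permuted the cultures freely and left out their pairing by origin. With the origin of the cultures as a replicate block, edgeR's quasi-likelihood test estimated the log2 fold change of FEZF1 at -0.81 ± 0.073 (standard error) with an adjusted p = 0.00594. Without the block the adjusted p was 0.29 by edgeR and 0.0154 by DESeq2. The block is a pairing by origin, since the control and doxycycline cultures of a clone come from the same cells. Of the Ewing sarcoma markers CD99, NKX2-2, NR0B1, STEAP1, PRKCB, LIPI and PPP1R1A, 0 of 7 were at 0 in any library, and 49.9 CPM was the lowest value. With doxycycline NR0B1, PPP1R1A and NKX2-2 rose by 0.67, 0.37 and 0.30 on the log2 scale and LIPI fell by 0.30 (edgeR, adjusted p = 0.00745, 0.0229, 0.0414 and 0.0203). Without the block edgeR called 0 of the 7 markers and DESeq2 called 1 (NR0B1). With any 1 origin left out NR0B1 kept its call (edgeR, adjusted p from 0.0151 to 0.0468), while PPP1R1A, NKX2-2 and LIPI lost theirs.

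Scaled by transcript length, DUSP6 was the most abundant of the 10 genes, at 133 ± 15.0 TPM (a unit that corrects for transcript length; mean ± SD over the 8 cultures). ETV5 followed at 68.5 ± 14.04 TPM, SPRED2 at 51.9 ± 5.66, SPRY4 at 24.2 ± 5.12, DUSP5 at 17.6 ± 6.58, ETV4 at 15.1 ± 5.63, SPRY2 at 6.24 ± 2.43, SPRED1 at 5.71 ± 1.15, DUSP4 at 4.41 ± 2.23 and PHLDA1 at 1.49 ± 1.14 TPM. The order was kept in 8 of 8 cultures between DUSP6 and ETV5 and between SPRED2 and SPRY4, and the ranges of these neighbours did not overlap. It was kept in 7 of 8 cultures between ETV5 and SPRED2, in 5 of 8 between SPRY2 and SPRED1 and in 6 of 8 between SPRED1 and DUSP4, so these neighbours did not stand apart beyond their spread. The ranges of the other neighbours overlapped as well, although the order held within each of the 8 cultures.

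**Figure D1:**
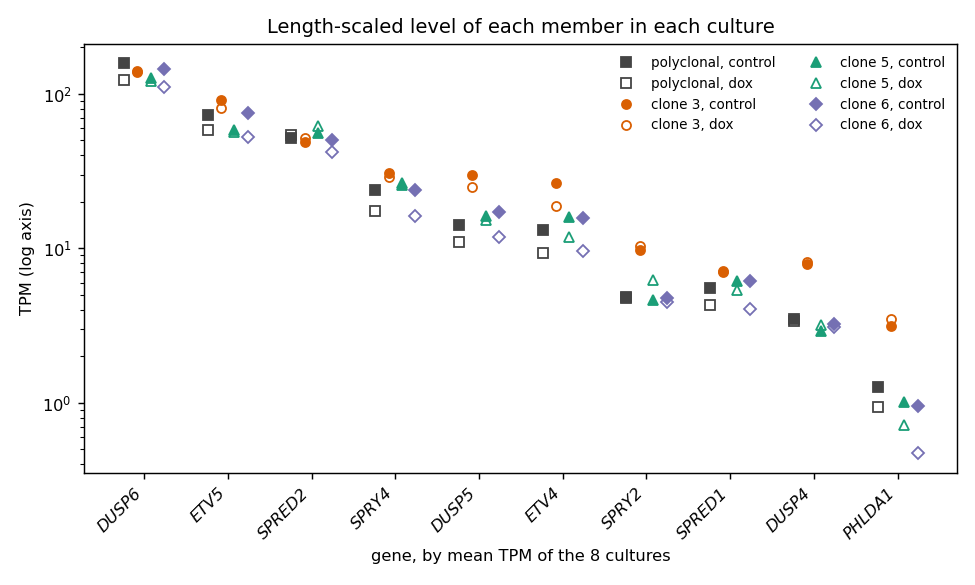
TPM (log axis) of the 10 ERK output and feedback genes in the 8 cultures, ordered by their mean, with filled marks for control and open marks for doxycycline cultures and a marker shape and colour for each origin. DUSP6 lay between 111 and 157 TPM and PHLDA1 between 0.470 and 3.47 TPM, and both clone 3 marks were the highest for every gene but DUSP6 and SPRED2.

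With doxycycline, 7 of the 10 genes had a negative fold change and ETV4 alone passed the test. ETV4, a PEA3 factor that activates genes downstream of ERK, fell to 0.692 times its control level. DUSP5, DUSP6, SPRED1 and ETV5 were also lower in 4 of 4 pairs of cultures, with fitted log2 fold changes from -0.31 to -0.21, and did not pass the adjustment. DUSP4, SPRY2 and SPRED2 had fold changes between 0.00 and 0.10 on the log2 scale. The median log2 fold change of the 10 genes was -0.27, against 0.00 over all genes tested, of which 49.3% had a negative value. All fold changes are doxycycline against control with origin as a block, tested by the quasi-likelihood method of edgeR, and each adjusted p is corrected over the 15993 genes by Benjamini-Hochberg.

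By that test 1 of 10 genes was called, against 7.63% of all genes in either direction and 3.91% that were called lower. At an unadjusted p under 0.05, 6 of 10 were lower (DUSP5, DUSP6, SPRY4, SPRED1, ETV4 and ETV5), against 12.2% of all genes, and the count was 3 without the polyclonal population, 4 without clone 6 and 4 with curated transcripts only. A lower value in 4 of 4 pairs was seen in 5 of 10, against 15.9% of all genes. The control and doxycycline cultures overlapped in every member, so that 0 of 10 were apart, against 4.94% of all genes. DESeq2 with the same block called 5 of 10, all lower (DUSP5, DUSP6, SPRY4, ETV4 and ETV5), against 13.8% of its genes. Without the block edgeR called 0 of 10, with DUSP6 at an unadjusted p of 0.0358, and DESeq2 called 0. The 10 genes share regulators and are not independent of each other.

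**Figure D2:**
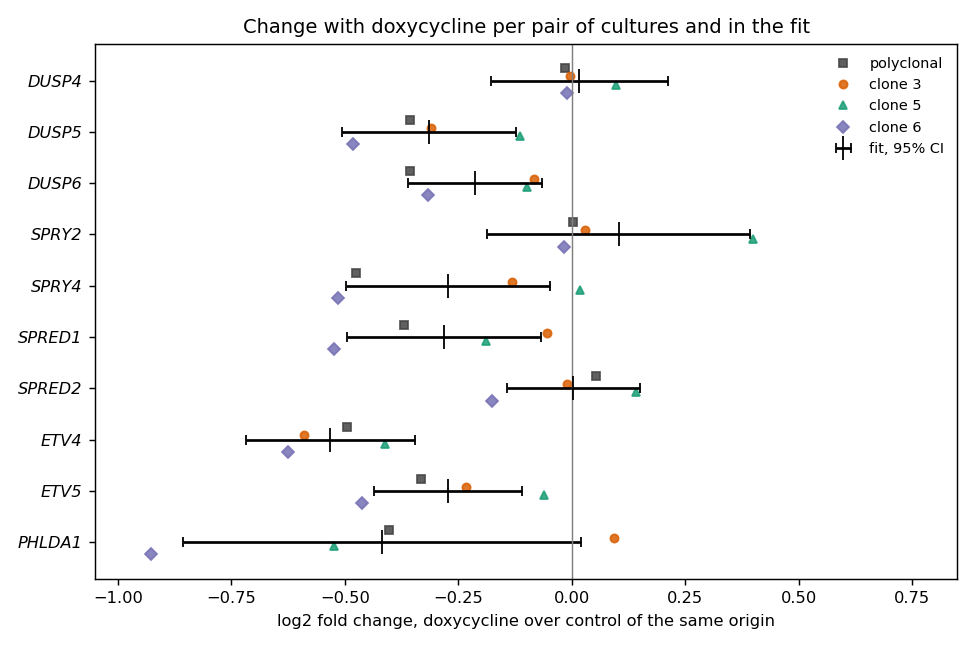
Log2 fold change of each gene, doxycycline over control, in the 4 pairs of cultures (marks by origin) and in the fit with origin as a block (vertical bar with its 95% confidence interval). For ETV4 the 4 pairs lay between -0.62 and -0.41, and for DUSP6 between -0.36 and -0.08, while those of SPRED2 lay on both sides of 0.

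Among the phosphatases, DUSP6 resides in the cytoplasm and acts on ERK with high selectivity. DUSP6 (chromosome 12, 89347235 to 89352501, minus strand) was at 316, 302, 279 and 319 CPM in the control cultures of the polyclonal population and clones 3, 5 and 6, and at 247, 285, 260 and 256 CPM in the doxycycline cultures. Each doxycycline culture was below its own control, most in the polyclonal population and clone 6, but clone 3 with doxycycline lay above clone 5 without it. On average DUSP6 was at 304 ± 18.3 CPM in controls and 262 ± 16.4 CPM with doxycycline (SD, n = 4 each). Its log2 fold change was -0.21 (95% confidence interval -0.36 to -0.07), which did not pass the adjustment (edgeR, adjusted p = 0.0857), while DESeq2 with the block gave an adjusted p = 0.00672. One of its transcripts took 99.8% of the reads in the controls and 99.7% with doxycycline.

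DUSP5, the nuclear phosphatase of ERK (chromosome 10, 110497907 to 110511533), was at 19.0, 42.8, 23.8 and 25.5 CPM without and at 14.9, 34.5, 22.0 and 18.3 CPM with doxycycline, in the same order of origins. It was lower in each pair, and both clone 3 cultures were above the other 6. Its log2 fold change was -0.31 (95% confidence interval -0.51 to -0.12; edgeR, adjusted p = 0.0592; DESeq2 with the block, adjusted p = 0.0218). DUSP4, a nuclear phosphatase with a wider choice of MAP kinases (chromosome 8, 29333064 to 29350684), was at 10.8, 26.2, 9.98 and 11.1 CPM without and at 10.7, 26.1, 10.7 and 11.1 CPM with doxycycline. The pairs of DUSP4 were nearly level in every origin, and clone 3 stood far above the rest. The 95% confidence interval of its log2 fold change of 0.02 ran from -0.18 to 0.21 (edgeR, adjusted p = 0.93), so a fall as large as that of ETV4 lay outside it.

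Sprouty proteins are induced by growth factor signalling and restrain receptor and RAS signals at the membrane. SPRY4 (chromosome 5, 142310430 to 142325021) was at 68.5, 91.3, 79.2 and 73.1 CPM in the controls and at 49.2, 83.3, 80.3 and 51.1 CPM with doxycycline. It was lower in the polyclonal population and clone 6 by log2 ratios of -0.48 and -0.52, while clone 3 was at -0.13 and clone 5 at 0.02. The fitted log2 fold change of -0.27 (95% confidence interval -0.50 to -0.05) did not pass the adjustment (edgeR, adjusted p = 0.133; DESeq2 with the block, adjusted p = 0.0473). SPRY2 (chromosome 13, 80335976 to 80341126) was at 5.95, 12.9, 6.35 and 6.47 CPM without and at 5.96, 13.1, 8.40 and 6.39 CPM with doxycycline. In this gene the clone 5 pair had a log2 ratio of 0.40, and the other 3 pairs were within 0.03 of 0 on the log2 scale. Its log2 fold change was 0.10 (95% confidence interval -0.19 to 0.39; edgeR, adjusted p = 0.668), and without clone 5 it was -0.01.

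SPRED proteins carry a Sprouty domain and bring the RAS inhibitor neurofibromin to the membrane. SPRED1 (chromosome 15, 38252836 to 38357249) was at 23.5, 32.3, 28.5 and 28.5 CPM in the controls and at 18.2, 31.1, 25.0 and 19.8 CPM with doxycycline. All 4 pairs were lower with doxycycline, with log2 ratios from -0.52 in clone 6 to -0.06 in clone 3, and the fitted log2 fold change of -0.28 (95% confidence interval -0.50 to -0.07) did not pass the adjustment (edgeR, adjusted p = 0.109; DESeq2 with the block, adjusted p = 0.0644). Predicted transcripts took 34.4% of the SPRED1 reads in the controls and 34.8% with doxycycline. SPRED2 (chromosome 2, 65307175 to 65432599) was at 126, 128, 147 and 134 CPM without and at 131, 127, 162 and 118 CPM with doxycycline. Its pairs went both ways, 2 lower and 2 higher, with a log2 fold change of 0.00 (95% confidence interval -0.14 to 0.15; edgeR, adjusted p = 0.983). The 2 SPRED genes, close in sequence and function, thus had intervals that overlapped between -0.14 and -0.07, and their difference was not tested.

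The PEA3 factors ETV4 and ETV5 bind ETS sites and are repressed by CIC when ERK is silent. ETV4 (chromosome 17, 43527846 to 43546340) was at 15.4, 32.8, 20.3 and 20.3 CPM in the control cultures and at 10.9, 21.7, 15.3 and 13.1 CPM in the doxycycline cultures. It fell in every origin by a like amount, by 0.50, 0.59, 0.41 and 0.62 on the log2 scale in the polyclonal population and clones 3, 5 and 6, and only the clone 3 culture with doxycycline was above any control. The mean went from 22.2 ± 7.42 to 15.3 ± 4.68 CPM (SD, n = 4 each), and the fitted log2 fold change was -0.53 (standard error 0.080, 95% confidence interval -0.72 to -0.35; edgeR, adjusted p = 0.0136). The call was lost without clone 3 (edgeR, adjusted p = 0.0512), without clone 6 (0.059) and without the block (0.763), with log2 fold changes of -0.51, -0.50 and -0.54. Over the alternatives the adjusted p of ETV4 ran from 5.09e-05 (DESeq2 with the block) to 0.763. The reads of ETV4 were split over 8 transcripts, and the split was unsteady between libraries, so only the sum is given.

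ETV5 (chromosome 3, 186046314 to 186109089) was more abundant, at 167, 222, 144 and 189 CPM without and at 132, 189, 138 and 137 CPM with doxycycline. It was lower in each pair, least in clone 5, and the clone 3 culture with doxycycline was above the polyclonal and clone 5 controls. Its log2 fold change was -0.27 (95% confidence interval -0.44 to -0.11; edgeR, adjusted p = 0.0574; DESeq2 with the block, adjusted p = 0.00296). Exons of ETV4 overlap the gene DHX8 on the other strand, and those of ETV5 overlap DGKG on the same strand. The log2 fold changes of these neighbours were 0.06 for DHX8 (edgeR, adjusted p = 0.622) and -0.04 for DGKG (edgeR, adjusted p = 0.782). DUSP6 and PHLDA1 overlap antisense lncRNAs in their exons. The kit marks the strand, but whether the counting used it is not given in the sources used here.

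PHLDA1, a protein with a pleckstrin homology-like domain that is induced by growth factors, was the lowest of the 10 (chromosome 12, 76025447 to 76031776). It was at 4.20, 11.1, 3.70 and 3.50 CPM in the controls and at 3.16, 11.8, 2.56 and 1.81 CPM with doxycycline. Of the 4 pairs 3 were lower and clone 3 was at a log2 ratio of 0.09. The log2 fold change of -0.42 had a wide interval, from -0.86 to 0.02 (edgeR, adjusted p = 0.22), and the 4 pairs ran from -0.93 in clone 6 to 0.09 in clone 3. It was -0.27 without clone 6, -0.62 without clone 3 and -0.21 without the block, and was called in none of the alternatives.

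**Figure D3:**
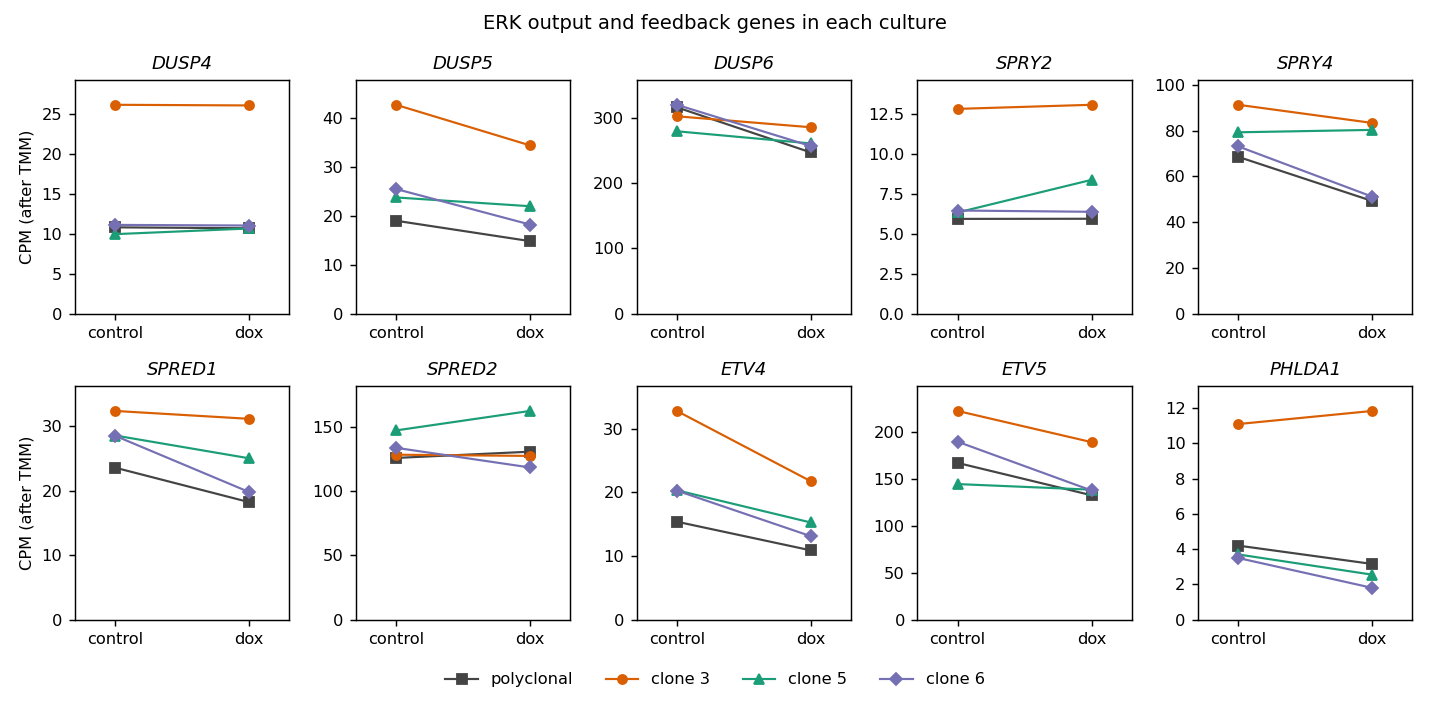
CPM after TMM scaling (linear axes from 0) of the 10 genes in the control and doxycycline (dox) cultures, with a line joining the 2 cultures of each origin. The lines of ETV4 all fall, from 15.4 to 10.9 CPM in the polyclonal population and from 32.8 to 21.7 CPM in clone 3, while the lines of DUSP4 are level and that of clone 3 lies near 26 CPM.

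The log2 ratios differed from origin to origin. In 7 of 10 genes (DUSP4, DUSP5, DUSP6, SPRY2, SPRY4, SPRED1 and ETV5) the polyclonal population and clone 6 had the 2 lowest log2 ratios of the 4 pairs, against 20.9% of all genes tested. DUSP6, for example, had log2 ratios of -0.36 and -0.32 in these 2 origins and of -0.08 and -0.10 in clones 3 and 5. In DUSP4 and SPRY2 the ratios in question were within 0.02 of 0, so the order says little there. ETV4 went another way, with clone 6 and clone 3 lowest. The pattern was noticed after the values were seen, and with 1 pair of cultures per origin the difference between origins in the response could not be tested.

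The 10 genes also differed by the origin of the culture, and clone 3 was most often the highest. With treatment in the model, 8 of 10 genes (all but DUSP6 and SPRED2) differed between the 4 origins (edgeR's quasi-likelihood test of 3 coefficients, adjusted p from 0.000515 for DUSP4 to 0.0299 for SPRED1), against 39.4% of all genes. In this test the control and the doxycycline culture of an origin stood as its replicates, since no origin had repeated cultures of the same treatment. Both clone 3 cultures were above the other 6 in 7 of 10 genes (DUSP4, DUSP5, SPRY2, SPRY4, SPRED1, ETV4 and PHLDA1), against 9.24% of all genes, a pattern noticed after the values were seen. PHLDA1 was 3.70-fold higher in clone 3 than in the other 3 origins, DUSP4 2.43-fold, SPRY2 1.98-fold, DUSP5 1.89-fold and ETV4 1.72-fold. ETV5, SPRED1 and SPRY4 were 1.36-fold, 1.34-fold and 1.33-fold higher, while DUSP6 and SPRED2 were at 1.06 and 0.943 times. The genes higher in clone 3 came from each of the classes, phosphatases, Sprouty and SPRED proteins, PEA3 factors and PHLDA1. Without clone 3, edgeR's test called 0 of 10 genes between the other 3 origins, with 5 of 10 at an unadjusted p under 0.05, although 33.2% of all genes were still called.

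**Figure D4:**
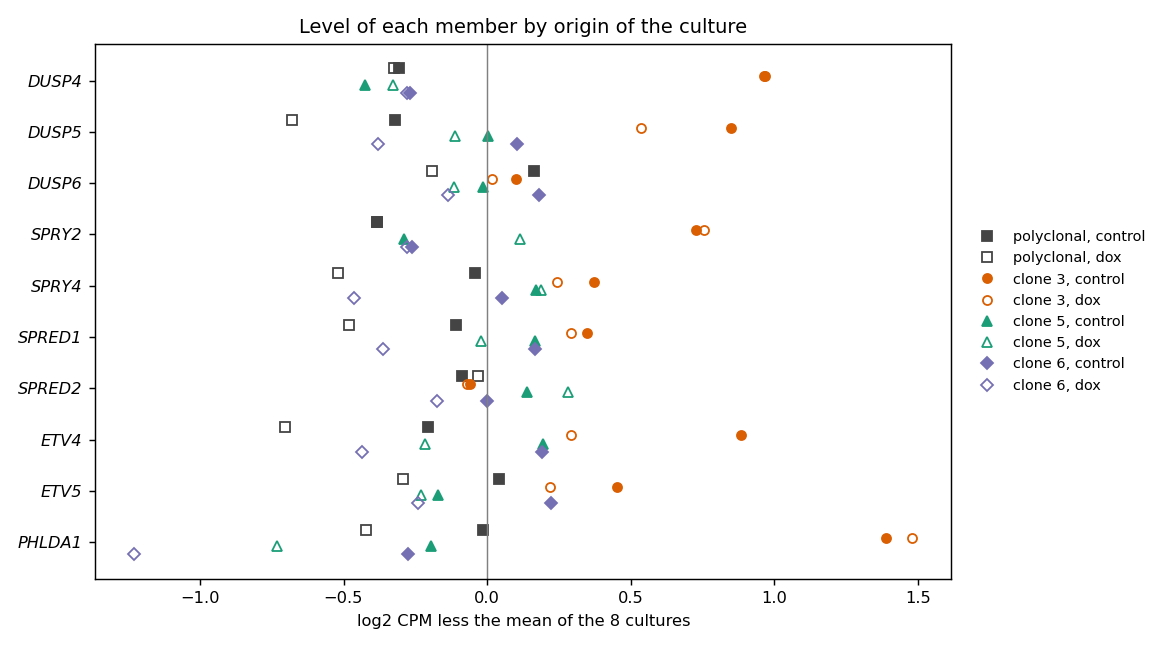
Log2 CPM of each gene less its mean over the 8 cultures, with filled marks for control and open marks for doxycycline cultures and a shape and colour for each origin. Both clone 3 marks lie to the right of all others for DUSP4, DUSP5, SPRY2, SPRY4, SPRED1, ETV4 and PHLDA1, and within the others for DUSP6 and SPRED2.

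The polyclonal population and clones 5 and 6 were at an extreme in few of the 10 genes. Both cultures of the polyclonal population were the highest in 0 and the lowest in 1 of the 10, against 4.95% and 5.68% of all genes. Those of clone 5 were so in 1 and 1, against 8.11% and 9%, and those of clone 6 in 0 and 0, against 13.9% and 15.4%. With clone 3 highest in 7 of the 10, few genes were left in which another origin could be highest. The differences from these shares were not tested. Clone 3 also stood below the other 6 cultures in 4 of the 7 Ewing sarcoma markers (CD99, NKX2-2, STEAP1 and PRKCB), against 8.28% of all genes. CD99, the surface protein used to diagnose the tumour, was at 0.473 times the other origins, and NR0B1 at 1.11 times. The 7 markers summed to between 1541 and 1554 CPM in the clone 3 cultures and to between 2428 and 3449 CPM in the other 6. Their part in the levels of the 10 genes was not tested. In bulk RNA a change in the share of cells that express a gene and a change of its level per cell cannot be told apart.

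The rest of the pathway went both ways with doxycycline, 34 genes lower and 36 higher. Of 74 other genes in lists of the pathway, 70 were tested, and 7 were called, 4 lower and 3 higher, against 7.63% of all genes, with a median log2 fold change of 0.02. With DESeq2's size factors edgeR called 5 of them, 4 lower and 1 higher. Among other ERK output genes (7 tested), EPHA4, an ephrin receptor, fell by 0.45 on the log2 scale, while MYC rose by 0.26 and HMGA1, a chromatin protein, by 0.37 (edgeR, adjusted p = 0.0255, 0.0442 and 0.0289), and MYC was at an adjusted p = 0.051 with DESeq2's size factors in edgeR. CCND1, the cyclin of the G1 phase, was at 2427 CPM in the controls and 2324 CPM with doxycycline (edgeR, adjusted p = 0.477). Among other MAP kinase phosphatases (6 tested), DUSP7 rose by 0.29 (edgeR, adjusted p = 0.0445, and 0.0518 with DESeq2's size factors). Of 4 further Sprouty, SPRED and PEA3 genes 3 were lower, as were 49.3% of all genes, with a median log2 fold change of -0.22. By edgeR and by DESeq2 with the block 0 of the 4 were called. By edgeR 1 (SPRY1, log2 fold change -0.41) was at an unadjusted p under 0.05. For SPRED3 15% and for ETV1 20% of the reads were matched.

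In the cascade itself, of the 12 genes reported here 0 were called by edgeR and 0 by DESeq2 with the block, with 5 at an unadjusted p under 0.05 by edgeR, all higher, against 12.6% of all genes. BRAF, the kinase mutated in this line, had a log2 fold change of -0.09 (edgeR, adjusted p = 0.609), and 10 of the 12 had a positive value, as had 50.7% of all genes. Of 11 effector kinases and nuclear effectors ERF, an ETS repressor that ERK expels from the nucleus, fell by 0.28 (edgeR, adjusted p = 0.0407), and CIC had a log2 fold change of -0.10 (edgeR, adjusted p = 0.395). Of 12 receptor tyrosine kinases PDGFRB fell by 0.39 (edgeR, adjusted p = 0.03), and of 4 FGF ligands tested FGF1 fell by 1.11 from a mean of 1.54 CPM (edgeR, adjusted p = 0.038; DESeq2 with the block, adjusted p = 0.0598). Of the receptors, 13.5% of the reads of FGFR1 and 49.9% of those of KIT were matched. Of 14 adaptors, scaffolds and RAS regulators 0 were called by edgeR, with 2 at an unadjusted p under 0.05, and 1 by DESeq2 with the block. The 7 calls depended on the block, without which edgeR called 0 of the 70 (7 at an unadjusted p under 0.05), and with curated transcripts alone it also called 0 (17 at an unadjusted p under 0.05). With any origin left out, 0 or 1 was called (PDGFRB, HMGA1 or EPHA4).

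**Figure D5:**
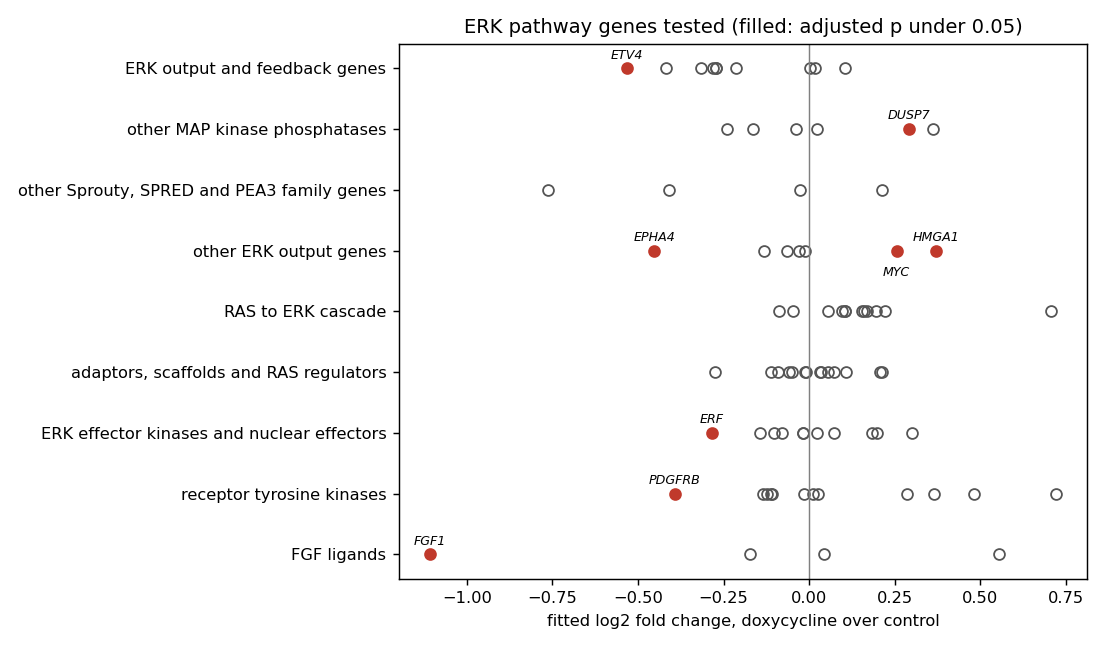
Fitted log2 fold change, doxycycline over control, of the 10 genes (top line) and of the 70 other ERK pathway genes tested, by list, with filled marks for an adjusted p under 0.05. The top line lies mostly left of 0 with a median of -0.27. Medians of the other lists ran from -0.22 (4 other Sprouty, SPRED and PEA3 genes) to 0.13 (12 cascade genes). Among the filled marks FGF1 is at -1.11 and HMGA1 at 0.37.

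Of the 70 other genes of the pathway, both clone 3 cultures were above the other 6 in 10 and below them in 3. The shares of all genes were 9.24% and 8.28%, and the difference from them was not tested. In the list of other ERK output genes both clone 3 cultures were above in 3 of 7 and below in 0. Among other MAP kinase phosphatases they were above in 2 and below in 1 of 6. The examples that follow were chosen after their values were seen. FOSL1, an AP-1 subunit that ERK stabilises, was at 18.8 CPM in clone 3 and 4.24 in the other origins, and EGFR at 6.33 and 1.08 CPM. IER3 and EPHA2, further ERK output genes, were 1.97-fold and 1.87-fold higher, and these 4 passed the test between origins (edgeR, adjusted p from 0.00035 for FOSL1 to 0.0012 for IER3). DUSP2, DUSP8 and SHC1 also passed it, while MET, MAP2K1 and PTPN11 did not (edgeR, adjusted p = 0.0545, 0.0722 and 0.391). CCND1, MYC, HMGA1 and EPHA4 were not among these 10. The 3 genes below the other 6 cultures were DUSP9, RPS6KA5 and RPS6KA1, at 0.414, 0.573 and 0.859 times the other origins. DUSP9 passed the test between origins (edgeR, adjusted p = 0.0144), while RPS6KA5 and RPS6KA1 did not (edgeR, adjusted p = 0.0925 and 0.192).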

How the data were processed

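RNA of 4 control and 4 doxycycline cultures was sequenced from stranded mRNA libraries. Reads were quantified by the authors with Salmon against RefSeq transcripts (GRCh38), and the deposited values are estimated counts, TPM and effective lengths of 158867 transcripts. They also deposited a DESeq2 table (version 2.11.40.6, per the labels), of which the mean of normalized counts (a signal averaged over all libraries) was used to check the sums; its fold change, standard error, Wald statistic and p-value columns were not used. Transcripts were matched to symbols (72.6% of them), which gave each of the 10 genes at least 96.6% of the reads that the authors' mean implies, and TPM were summed likewise.

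Estimated counts were summed per gene, rounded, filtered with filterByExpr, TMM normalized and tested with edgeR 4.0.16 (quasi-likelihood, origin as a block, Benjamini-Hochberg at 0.05) in R 4.3.3. Alternatives were fits without the block, DESeq2 1.42.0 with and without it, size factors from DESeq2, a minimum of 1 count in any library, curated transcripts only, leaving out each origin and an offset for effective length. The study's methods name no pairing. Deviations of log2 CPM (prior count 2) from the group means correlated at 0.41 to 0.59 between cultures of the same origin and at -0.40 to 0.18 between others. The deviations of a group cancel out, so a positive value within origins lowers those between others, and the contrast is in part built in. Named genes were the 10, FEZF1, called genes of the other lists (up to 12) and genes most like DUSP6. The last were the 5 closest by each of 2 measures, with the 10 left out. Genes named beyond these (CCND1, SPRY1, SPRED3, ETV1, BRAF, CIC, FGFR1, KIT, the overlapping genes, the examples for clone 3 and the markers not called) were chosen after their values were seen. One gene of the other lists is not reported here. The genes and lists were chosen with earlier results of these data known. Promoters and loci are from RefSeq (GRCh38.p14), and strands and overlaps from GENCODE 44; Python 3.11.15 was used.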

Additional observations from a re-analysis of the deposited data

Results flagged for a closer look

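In groups of 4 cultures, a culture that stood far from the other 3 was found in 6 of 22 groups examined, where chance gives about 1 in 20, or 1.1 groups. It was the clone 3 culture, the highest, in each of the 6. The same 4 origins recur in every group, so the groups are not independent and the 6 cannot be weighed against the 1.1. DUSP4 was at 26.2 CPM in the clone 3 control, with the next control at 11.1 CPM, and at 26.1 CPM in the clone 3 doxycycline culture, with the next at 11.1 CPM. SPRY2 was at 12.9 CPM in the clone 3 control against 6.47 CPM in the next. ETV5 was at 188.9 CPM in the clone 3 doxycycline culture against 138 CPM in the next. PHLDA1 was at 11.1 CPM in the clone 3 control against 4.20 CPM in the next, and at 11.8 CPM in the clone 3 doxycycline culture against 3.16 CPM in the next.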

How the results depend on the processing

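With no replicate block, FEZF1 had a log2 fold change of -0.80 that did not pass the adjustment (edgeR), 0 of the 10 genes, 0 of the 70 other pathway genes and 1 of all genes were called, against 1, 7 and 1221 with the pairing by origin. DESeq2 called 5, 9 and 1881 with the block and 0, 0 and 210 without it, and FEZF1 passed in DESeq2 without the block (adjusted p = 0.0154). With curated transcripts alone the log2 fold change of FEZF1 was -1.18 (edgeR, adjusted p = 0.0255). A filter at 1 count in any library called 2 of the 10 (ETV4 and ETV5), and with curated transcripts alone 0 of the 70 and 493 of all genes were called. Leaving out each origin in turn gave 0 to 1 of the 10, 0 to 1 of the 70 and 175 to 699 of all genes called with doxycycline, and 0 to 8 of the 10 called between origins. The cause of these shifts was not tested, although fewer cultures enter the last. Fold changes near 0 turned sign. SPRED2 was at -0.0111 and -0.0057 in DESeq2 with and without the block, at -0.0093 with DESeq2's size factors, at -2.6e-05 with the filter at 1 count and from -0.0595 to 0.061 without each origin. DUSP4 was at -0.0102 in DESeq2 without the block and from -0.0264 to 0.0239, and SPRY2 from -0.0116 to 0.1407, without each origin. The other 7 kept a negative sign under the 11 alternatives. PHLDA1 and SPRY2, at under 15 CPM, rest on the fewest reads.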

Other observations

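The genes whose log2 CPM over the 8 libraries was most like that of DUSP6 were VEZF1 (Pearson r 0.956), PTGER3 (0.954), NHS (0.933), WASL (0.930) and FUBP3 (0.926). VEZF1 was at 95.8, 94.1, 92.1 and 100.1 CPM in the controls of the polyclonal population and clones 3, 5 and 6 and at 76.4, 92.4, 78.7 and 80.5 CPM with doxycycline. After the mean of each origin was subtracted, the closest were ZFTA (0.998), AQP6 (0.998), JRKL (0.997), ZNF22 (0.996) and IKZF5 (0.996). The control and doxycycline values of an origin then mirror each other, so this r rests on the differences of 4 pairs. AQP6 reached at most 0.378 CPM and NHS at most 1.045 CPM in any library, so both rest on few reads. The other ERK output and feedback genes were left out before both rankings, so the rankings do not show how like DUSP6 they were. The values given are the highest of the remaining genes tested over 8 libraries that share their origins. They are given as a description.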
